A study of Rattus norvegicus with 9 samples.

Results

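Messenger RNA precursors are cut and joined by the spliceosome, and a large set of RNA-binding proteins decides which splice sites it uses. The genes described here, in the thalamus of young rats, are 80 from families that hold spliceosome or such RNA-binding proteins. They are the heterogeneous nuclear ribonucleoproteins (Hnrnp), the SF3A and SF3B subunits of the U2 particle (Sf3) and the pre-mRNA processing factors (Prpf). The others are the numbered RNA-binding motif proteins (Rbm) with Rbmx, the CELF proteins, Tia1, Tial1 and Leng8. All were taken by symbol from 14217 measured genes, not by a known role in splicing. The value of each gene is that of its single-symbol probe set chosen by the highest mean over the 9 arrays, so 80 of the 142 probe sets of these genes were used. Tia1 and Leng8 belong to the group because their chow and powder values had already been seen to differ, and the whole group was put together with that contrast known. The differences below are therefore a description, and the adjusted p-values only place a member in the fit over all genes.

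RNA came from the thalamus of male Wistar rats, obtained at 3 weeks of age and given powdered feed for 2 days. They were then split into groups of like mean weight, fed either solid chow or powder for 8 days. The labels give an age of 5 weeks for every sample and speak of 10 rats, and 4 chow and 5 powder arrays were analysed here. No genetic change or other agent is named for either group. Since the labels do not tie each array to an animal, p-values measure only the spread between these arrays, part of which may be technical.

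In the spliceosome, the U1 particle marks the 5′ splice site and the U2 particle, through SF3A and SF3B, marks the branch point, after which the PRPF-rich U4/U6.U5 particle joins to form the catalytic core. Hnrnp proteins coat the nascent transcript and often block splice sites, while RBM, CELF and TIA proteins bind short motifs nearby and favour or suppress single exons. Neurons rely on this layer of control for the many isoforms of their channels, receptors and synaptic proteins.

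The 80 members fell into separate classes by how much their values moved at all. For 63 members the 9 log2 values spanned less than 0.01, with a median span of 0.000421, so that a difference between the diets had almost no size there. For the other 17 (21.3%) the median span was 0.368. Of all genes, 16.98% spanned at least 0.01. The limit lay in a wide gap for these genes, since the member just inside it was Rbm25 with a span of 0.208 and the member just outside was Rbm3, a cold-induced RNA-binding protein, with 0.00411. The narrow spans were already in the deposited values, and the step that produced them is not given in the sources used here. In a bulk tissue array, fewer cells of a type and less RNA per cell cannot be told apart.

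**Figure D1:**
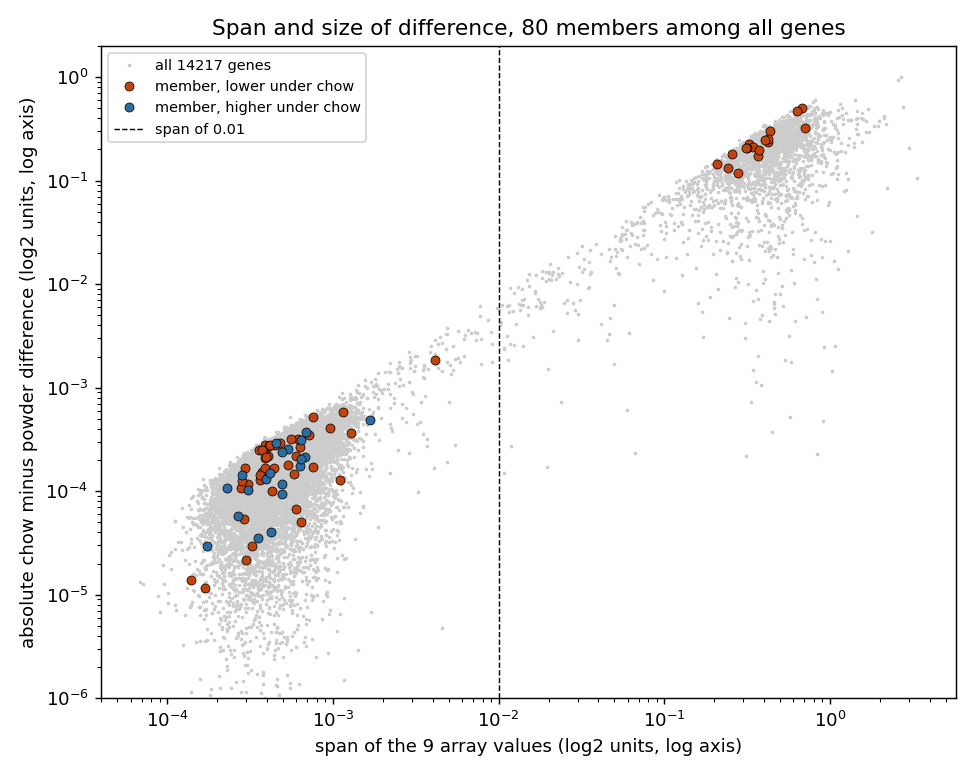
Span of the 9 array values (x, log2 units, log axis) against the absolute chow minus powder difference (y, log2 units, log axis) for all 14217 genes (grey) and the 80 members (orange where lower under chow, blue where higher). The 17 members to the right of the dashed line at 0.01 are all orange, while the 63 to its left include both colours.

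The chow 1 array stood apart in its tissue markers. It was the lowest of the 9 arrays for all 8 measured markers of thalamic relay neurons and the highest for all 4 striatal markers of measurable span. Prkcd, a kinase of relay neurons, read 10.90 on it and 11.32 to 11.61 on the other chow arrays, and Ppp1r1b, the striatal phosphoprotein DARPP-32, read 9.18 on it and 7.93 to 7.99 on them. Without chow 1 all 17 members of measurable span still had differences below 0, from -0.49 to -0.091 with a median of -0.23, beside -0.51 to -0.12 and -0.21 with it. Powder 1 also stood out, as the highest of the 9 arrays for all 5 meningeal fibroblast markers. It was the lowest for 3 of the 4 hypothalamic markers of measurable span.

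Detection calls were not analysed here, so the labelled tissue can be described only by levels. The relay markers' summed linear level ran from 11329 to 16925 under chow and from 15756 to 17214 under powder, with 7 of the 8 at a lower mean under chow and 0 called by limma in either direction. All 4 striatal and all 4 hypothalamic markers of measurable span had a higher mean under chow, and none was called. The striatal part leaned on chow 1. Drd1 read 7.41, 7.57 and 7.56 on chow 2 to 4, beside a powder mean of 7.58. Drd2, Ppp1r1b and Rgs9 still had higher means there than under powder. Of the hypothalamic markers, Avp read 8.06, 8.17 and 9.66 on chow 2 to 4, beside a powder mean of 8.68. Oxt read 8.68, 8.39 and 10.07 there, beside 9.15. Hcrt and Pmch still had higher means there than under powder. Of the 6 reticular nucleus and interneuron markers of measurable span, 5 had a higher mean under chow. Chow 1 was the highest of the 9 arrays for the same 5. On chow 2 to 4 Gad1 read 10.82, 10.94 and 11.10, beside a powder mean of 11.02. Npy read 8.62, 8.82 and 8.69 there, beside 8.74. Gad2, Slc32a1 and Sst still had higher means there than under powder. Gad2 among them was higher on every chow array, at 0.60 ± 0.199 (adjusted p = 0.0536 by limma). The relay marker Tcf7l2 at -0.26 and the astrocyte gene Aqp4 at -0.14 were lower on every chow array. None of these genes was called. The summed levels of the diets overlapped in 10 of 11 marker lists. The exception was the list for cortical and hippocampal neurons (4 genes, 1072 to 1342 under chow and 1363 to 1479 under powder). There Prox1, a transcription factor of dentate granule cells, was lower at -0.35 ± 0.071 (adjusted p = 0.0112), while Slc17a7, a vesicular glutamate transporter and the only other one of measurable span, was at 0.094 and not called. The oligodendrocyte gene Mobp was lower at -0.13 ± 0.041 and the endothelial receptor gene Flt1 at -0.41 ± 0.121 (adjusted p = 0.0439 and 0.0363). In both genes the arrays of the diets overlapped. Other oligodendrocyte markers of measurable span were Cnp at -0.023, Mag at 0.013 and Mog at -0.020, none of them called. Other endothelial and pericyte markers of measurable span were Pecam1 at -0.020 and Rgs5 at 0.22, neither of them called. The part of these other cell types in the members' result was not tested, beyond the values without chow 1.

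All 17 members with a measurable span had a lower mean under chow than under powder, from -0.12 for Celf2 to -0.51 for Leng8 on the log2 scale, with a median of -0.21. At an adjusted p under 0.05 in limma, 15 of the 17 were called lower and 0 higher; in the same fit 40.2% of all genes spanning at least 0.01 were called lower and 9.03% higher. Since the contrast was known when the group was made, nothing is drawn from that gap. The median difference over those 2414 genes was -0.12, and 72.3% of them had a difference below 0, so a lean toward lower values under chow was general in this part of the table. In 14 of the 17 members every chow array lay below every powder array, a separation seen in that direction in 37.9% of the 2414 genes. Without Tia1 and Leng8, 13 of 15 members were called lower, with a median of -0.21.

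Over all 80 members, 33 were called lower and 4 higher, beside 18.8% of all genes called lower and 14.2% higher. The 63 members of narrow span contributed 18 of the lower and all 4 of the higher calls, where 14.4% and 15.2% of all genes of narrow span were called. Their differences ran from -0.00185 to 0.00048, so these calls carry a test result without a size. With quantile normalization the members gave 16 lower and 61 higher calls, beside 7.03% and 58.6% of all genes. With array medians subtracted they gave 17 and 63, beside 7.97% and 85.2%. Either rescaling shifted the median gene by more than the narrow members span (0.0121 and 0.00657). The direction of a call on a member of narrow span therefore follows the scaling, here and in every family below. The 17 members of measurable span kept differences below 0 in both cases.

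**Figure D2:**
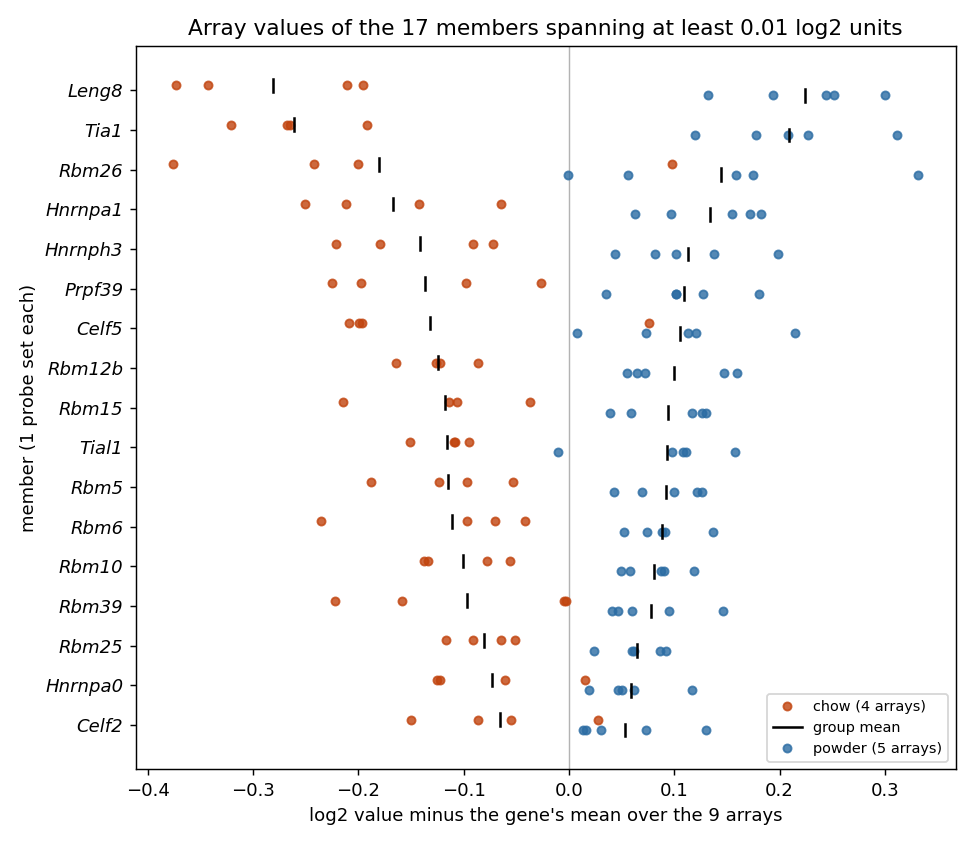
Log2 value on each array minus the gene's mean over the 9 arrays (x) for the 17 members spanning at least 0.01 (y), with chow arrays in orange, powder arrays in blue and group means as black bars. The groups are apart for 14 members and overlap for Rbm26, Celf5 and Celf2.

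The widest differences were those of Leng8 and Tia1, the members added because of them. Leng8, a protein whose symbol comes from its place in the leukocyte receptor cluster, read 8.01, 8.14, 7.98 and 8.16 on the chow arrays and 8.55, 8.60, 8.60, 8.48 and 8.65 on the powder arrays. The highest chow array stayed below the lowest powder array, and the difference was -0.51 ± 0.050 (SE), or 0.705-fold. Tia1, which binds U-rich RNA beside weak 5′ splice sites and gathers in stress granules, read 7.40, 7.32, 7.27 and 7.32 under chow and 7.71, 7.82, 7.90, 7.77 and 7.80 under powder. Its groups were also apart, with a difference of -0.47 ± 0.041, or 0.722-fold. Tial1, the close relative of Tia1 with the same binding preference, read 9.01, 9.01, 8.97 and 9.02 under chow and 9.11, 9.22, 9.27, 9.23 and 9.21 under powder. Tial1 was thus below on every chow array as well, by a smaller step of -0.21 ± 0.032 (adjusted p = 0.00542).

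Promoter sequences of Leng8, Tia1 and Hnrnpa1, the called members of largest difference, are shown because the 17 members of measurable span were all at lower means under chow. The RefSeq table (build GRCr8) gives 300 bases per transcript start, 250 before it and 50 after it, and it held an entry for 71 of the 80 members and 15 of the 17. The windows are chr1:79124689-79124988 on the minus strand for Leng8, chr4:120410023-120410322 on the plus strand for Tia1 and chr7:136253868-136254167 on the plus strand for Hnrnpa1. Each is written 5′ to 3′ along its gene, and capitals mark CCAAT or its complement ATTGG, the box bound by the factor NF-Y.
Leng8: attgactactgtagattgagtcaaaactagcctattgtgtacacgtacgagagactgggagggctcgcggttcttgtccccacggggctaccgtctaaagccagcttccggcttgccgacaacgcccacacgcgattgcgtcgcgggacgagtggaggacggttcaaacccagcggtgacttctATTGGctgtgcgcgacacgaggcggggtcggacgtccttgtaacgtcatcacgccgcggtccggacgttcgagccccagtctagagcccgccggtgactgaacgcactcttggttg
Tia1: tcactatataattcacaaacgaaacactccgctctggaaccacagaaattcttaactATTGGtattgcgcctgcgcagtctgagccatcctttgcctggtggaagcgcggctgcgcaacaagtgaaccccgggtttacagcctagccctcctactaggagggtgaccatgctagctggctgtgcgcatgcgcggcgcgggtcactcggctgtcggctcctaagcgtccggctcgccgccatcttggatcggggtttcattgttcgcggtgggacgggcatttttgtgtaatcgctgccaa
Hnrnpa1: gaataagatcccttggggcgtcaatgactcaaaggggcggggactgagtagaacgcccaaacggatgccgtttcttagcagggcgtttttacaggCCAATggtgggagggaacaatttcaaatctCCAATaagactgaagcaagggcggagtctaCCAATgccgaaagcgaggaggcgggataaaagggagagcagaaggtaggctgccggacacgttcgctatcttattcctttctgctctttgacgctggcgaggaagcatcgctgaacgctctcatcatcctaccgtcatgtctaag

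The Hnrnpa1 window held the box 3 times, starting 155, 125 and 95 bases before the transcript start, Tia1 held it once at 193 bases and Leng8 once at 66 bases. A CCAAT box on either strand was present in 11 of the 15 members with a window, in 27 of the 56 matched members of narrow span, and in 38.8% of 2006 genes spanning at least 0.01. GGGCGG, the core of Sp1 sites, was present in 5 of 15, 31 of 56 and 66.7%. Of the other 6 motifs searched on both strands, CCGGAAG (ETS factors) was in 2 of 15 windows and 12.7% of the 2006, AAGATGGCG (YY1) in 2 and 3.04%, GCGCATGCG (NRF1) in 1 and 2.89%, CACGTG (an E-box) in 1 and 8.92%, TGACGTCA (a cyclic AMP response element) in 0 and 3.74%, and TATAAA in 0 and 8.72%. A shorter motif can lie inside a longer site, and the matches only describe these letters in these windows.

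Among the 17 Hnrnp genes, 3 had a measurable span and all 3 were called lower under chow. Hnrnpa1, which binds splicing silencers and opposes SR proteins at 5′ splice sites, read 9.34, 9.19, 9.15 and 9.26 under chow and 9.56, 9.46, 9.58, 9.57 and 9.50 under powder. No chow array reached the lowest powder array, and the difference was -0.30 ± 0.043 (adjusted p = 0.00431). Hnrnph3, a member of the family that binds runs of G, read 9.09, 8.94, 8.98 and 9.07 under chow and 9.30, 9.26, 9.36, 9.24 and 9.20 under powder. Its groups were also apart, at -0.25 ± 0.042 (adjusted p = 0.00642).

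Hnrnpa0, an Hnrnp protein that also binds AU-rich elements, read 11.06, 10.92, 10.92 and 10.99 under chow and 11.10, 11.09, 11.16, 11.11 and 11.07 under powder. The groups met almost edge to edge, chow 1 at 11.06 and powder 5 at 11.07, and the difference was -0.13 ± 0.033 (adjusted p = 0.0228). Without chow 2 it was -0.11 with adjusted p = 0.0564 and no longer called. Of the other 14 Hnrnp genes, all of narrow span, Hnrnpdl, Hnrnph1, Hnrnpl, Hnrnpll and Hnrnpm were called lower and Hnrnpab higher, with differences from -0.00041 to 0.00029. Hnrnpk, a poly-C binding protein, is no member, because its 2 probe sets carry more than 1 symbol.

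The Rbm genes were the largest family, 35 members, of which 8 had a measurable span and 7 of these were called lower. Rbm5, Rbm6 and Rbm10 are related splicing regulators that act on exons of apoptosis and cell fate genes. Rbm5 read 10.33, 10.29, 10.20 and 10.26 under chow and 10.43, 10.45, 10.51, 10.51 and 10.48 under powder. Rbm10 read 8.27, 8.26, 8.32 and 8.34 under chow and 8.49, 8.46, 8.49, 8.45 and 8.52 under powder. Rbm6 read 7.97, 8.10, 8.16 and 8.13 under chow and 8.29, 8.34, 8.29, 8.28 and 8.25 under powder. In all 3 genes the groups were apart, with differences of -0.21 ± 0.030 for Rbm5, -0.18 ± 0.022 for Rbm10 and -0.20 ± 0.040 for Rbm6 (adjusted p = 0.00431, 0.00275 and 0.011). Rbm5 (117298866 to 117328107) and Rbm6 (117327607 to 117431397) are neighbours on chromosome 8 of GRCr8 whose annotated ends overlap, so a probe in the shared stretch could read either gene.

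Rbm15, an adaptor of the complex that methylates adenosine in RNA, read 8.24, 8.17, 8.06 and 8.16 under chow and 8.40, 8.31, 8.40, 8.33 and 8.39 under powder. Its groups did not meet, and its difference was -0.21 ± 0.038 (adjusted p = 0.00771). Rbm25, a U1-associated splicing regulator, read 8.79, 8.76, 8.81 and 8.83 under chow and 8.90, 8.97, 8.97, 8.94 and 8.94 under powder. This was a small step between tight groups, -0.15 ± 0.018 (adjusted p = 0.00289). Rbm12b read 7.43, 7.39, 7.43 and 7.47 under chow and 7.62, 7.61, 7.71, 7.63 and 7.70 under powder. Here too every chow array was low, at -0.22 ± 0.028 (adjusted p = 0.00289).

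Rbm39 and Rbm26 depended on single arrays. Rbm39, a splicing coactivator related to the U2AF subunit, read 10.37, 10.15, 10.22 and 10.37 under chow and 10.42, 10.42, 10.52, 10.43 and 10.47 under powder. Chow 1 and chow 4 stood just below the powder range, and the difference was -0.17 ± 0.052 (adjusted p = 0.038). Its call was lost without chow 2, chow 3 or any 1 powder array (adjusted p from 0.0599 to 0.0828). Rbm26, a zinc finger protein linked to nuclear RNA decay, read 9.92, 9.62, 9.45 and 9.58 under chow and 10.00, 9.82, 10.15, 9.98 and 9.88 under powder. Chow 1 lay inside the powder range, and the difference of -0.32 ± 0.106 was not called (adjusted p = 0.0513). Without chow 1 it was -0.42 with adjusted p = 0.0188. Of the 27 Rbm genes of narrow span, 8 were called lower (Rbm3, Rbm14, Rbm17, Rbm18, Rbm24, Rbm27, Rbm28 and Rbm33) and 2 higher (Rbm38 and Rbm42). Their extremes were -0.00185 for Rbm3 and 0.00048 for Rbm20, which was not called. Rbmx, the X-linked Hnrnp G protein, read 8.05 on each array and had a difference of -0.000054 (adjusted p = 0.475).

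On the probe sets used, nearly all Sf3 and Prpf genes were among those of narrow span, where the values show neither change nor its absence. All 9 Sf3 genes had narrow spans, of at most 0.00069, with Sf3b1, which holds the branch point adenosine, called lower at -0.00022 and Sf3b4 called higher at 0.00037. Of 11 Prpf genes, the 1 with a measurable span was Prpf39, a U1-associated factor. It read 8.86, 8.96, 8.84 and 9.03 under chow and 9.10, 9.16, 9.24, 9.19 and 9.16 under powder. Its groups were apart, at -0.25 ± 0.047 (adjusted p = 0.0096). The other called Prpf genes were Prpf3, Prpf18, Prpf38b and Prpf40b, all lower by less than 0.0003, and Prpf8, the protein around the catalytic centre, was at -0.000022 and not called.

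Of the 5 CELF genes, which bind GU-rich RNA and set developmental splicing in brain and muscle, Celf2 and Celf5 had a measurable span and neither kept its groups apart. Celf5 read 9.33, 9.06, 9.05 and 9.06 under chow and 9.26, 9.33, 9.37, 9.47 and 9.38 under powder. Chow 1 stood with the powder arrays and the other 3 chow arrays lay together below them. The difference was -0.24 ± 0.070 (adjusted p = 0.0369), and it was -0.31 (adjusted p = 0.00855) without chow 1. The call was lost without any 1 of chow 2, 3 and 4 and powder 2, 3, 4 and 5 (adjusted p from 0.0626 to 0.0884). Celf2 read 10.27, 10.44, 10.36 and 10.33 under chow and 10.49, 10.43, 10.43, 10.45 and 10.55 under powder, so that chow 2 overlapped the powder arrays. Its difference of -0.12 ± 0.040 was not called (adjusted p = 0.0549), and without chow 2 it was -0.15 with adjusted p = 0.0283.

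A second look at the same genes comes from the 62 probe sets that were not used, since 34 of the 80 members had more than 1. Of these 62, 17 spanned at least 0.01, on 13 genes, and they pointed both ways: 7 were called lower and 6 higher. Among all 1019 such probe sets of all genes, 18.1% were called lower and 41.8% higher, a balance opposite to that of the probe sets of highest mean. Hnrnpu, a large nuclear scaffold protein, had a difference of 0.000029 on its used probe set and -0.40 ± 0.034 (adjusted p = 0.00155) on another. Prpf4b, a spliceosomal kinase, was at 0.00013 and at -0.28 ± 0.020 (adjusted p = 0.00143), and Celf1 at -0.00017 and at -0.18 ± 0.031 (adjusted p = 0.00801).

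Probe sets of 1 gene disagreed in several members. Hnrnpa2b1, an Hnrnp protein that also sorts RNA for transport, had a used probe set at -0.00027 and 3 others, at 0.31 ± 0.044, -0.30 ± 0.066 and -0.25 ± 0.039, all called. The first read 9.43, 9.32, 9.45 and 9.35 under chow and 9.080, 9.030, 9.075, 9.191 and 9.003 under powder. The second read 9.02, 8.99, 8.77 and 9.01 under chow and 9.15, 9.20, 9.38, 9.27 and 9.22 under powder. The chow arrays were therefore all high on one and all low on the other. The branch point subunits Sf3b1 and Sf3b2 each had another probe set that was higher under chow, at 0.28 ± 0.065 (adjusted p = 0.017) and 0.27 ± 0.034 (adjusted p = 0.00302). Sf3b2 there read 9.13, 9.19, 9.06 and 9.08 under chow and 8.78, 8.87, 8.80, 8.90 and 8.86 under powder, with no overlap.

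Rbm18 and Rbm27, called lower on their used probe sets of narrow span, were higher on others by 0.31 ± 0.045 (adjusted p = 0.00449) and 0.082 ± 0.017 (adjusted p = 0.0127). Celf2 was at 0.26 ± 0.079 (adjusted p = 0.0369) on its other probe set of measurable span, against -0.12 on the used one. Rbm5 had others at -0.39 ± 0.043 (adjusted p = 0.00243) and 0.11 ± 0.068 (adjusted p = 0.227). Hnrnph3 was lower on its second as well, at -0.15 ± 0.032 (adjusted p = 0.0144). The 2 others of Rbm39 of measurable span were at -0.032 and -0.088, and the 1 such of Rbm26 at -0.00096, none of them called. In this fit over all rat probe sets the used probe set of Rbm26 had adjusted p = 0.0494 by limma and passed the threshold that it missed in the fit over genes. With the median over all of a gene's own probe sets in place of the one of highest mean, Leng8 was at -0.25, Tia1 at -0.23, Hnrnpa1 at -0.13, Rbm10 at -0.091 and Rbm15 at -0.11, all still called. Rbm39 was then at -0.032 and not called, Rbm26 at -0.00038, Rbm5 at 0.11 and not called, and Celf2 at 0.13 and called higher. This median takes in probe sets of narrow span. The other ones of Leng8, Tia1, Rbm10 and Rbm15 were such, at 0.00028, 0.0003, 0.00012 and 0.0018. The Rbm26 value is that of one of its probe sets of narrow span. For Hnrnpa1 the median was the used probe set on the chow arrays. On the powder arrays it was a probe set of narrow span that read 9.36 on all arrays. Its -0.13 therefore compares different probe sets. Which part of each transcript a probe set reads was not analysed here.

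**Figure D3:**
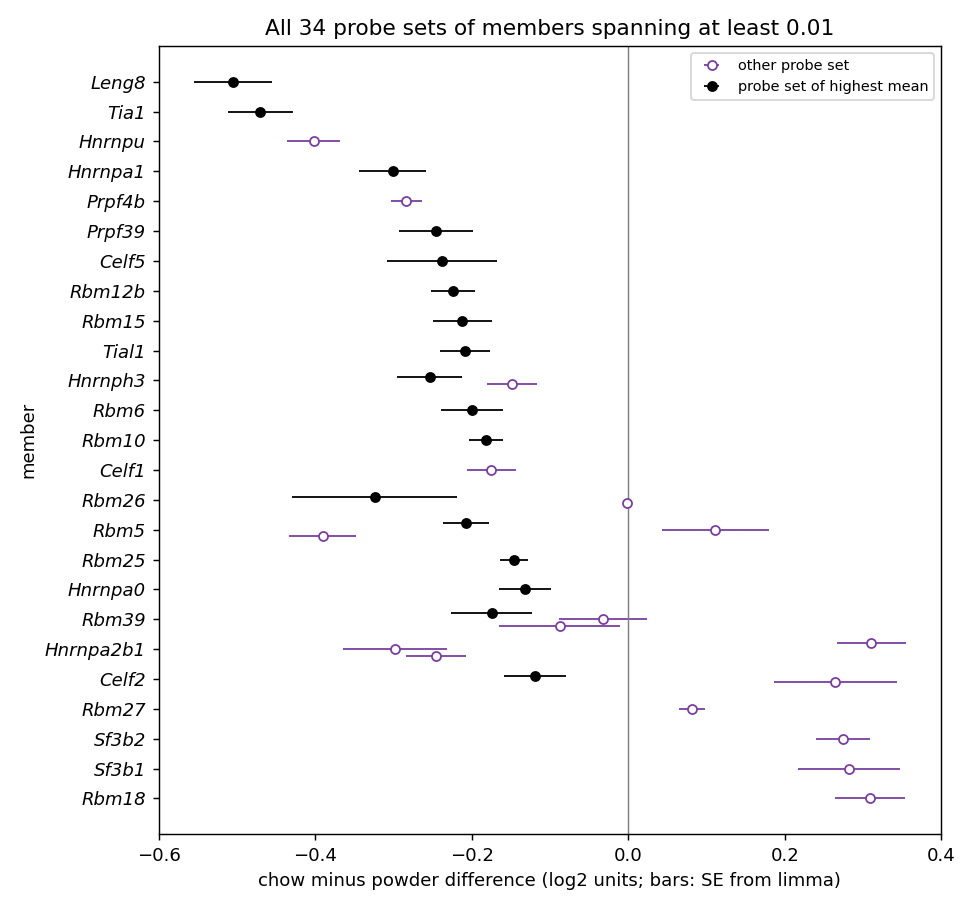
Chow minus powder difference (x, log2 units, bars are SE from limma) of the 34 probe sets of members that span at least 0.01, by gene (y). Filled black points are the probe sets of highest mean, all below 0, and open purple points are the other probe sets, which lie from -0.40 for Hnrnpu to 0.31 for Hnrnpa2b1.

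Partner proteins of the spliceosome outside the naming rule were read in the same fit. Of 75 measured from a list of 83, 24 were called lower and 5 higher, beside 18.8% and 14.2% of all genes. The list counts became 9 and 63 with quantile normalization, beside 7.03% and 58.6% of all genes. With array medians subtracted they became 9 and 64, beside 7.97% and 85.2%. Among the 12 with a span of at least 0.01, 9 were lower and 0 higher, with a median difference of -0.26, beside 40.2% and 9.03% and a median of -0.12 over all genes of such span. Snrpe and Srrm2 went the other way, both at 0.064 and not called. For Snrpe every chow array lay above every powder array (adjusted p = 0.057 by limma). Snrnp70, the U1 protein that touches the 5′ splice site, had a mean of 9.66 ± 0.079 (SD, n = 4) with chow and 10.08 ± 0.068 (SD, n = 5) with powder feed, a difference of -0.42 ± 0.048 (SE, adjusted p = 0.00255 in limma). Son, a nuclear speckle protein, was at -0.30 ± 0.029 (adjusted p = 0.00199) and Pnn, a speckle and exon junction protein, at -0.39 ± 0.079 (adjusted p = 0.012). The RNA helicase Dhx16 was at -0.32, the minor spliceosome protein Snrnp48 at -0.31 and the U1-associated Luc7l3 at -0.28, all called. By the median over their probe sets Son was at -0.00037, Luc7l3 at -0.00007 and Pnn at -0.13, and the last 2 were not called.

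Of 47 measured RNA-binding regulators of splicing from a list of 55, 18 were called lower and 0 higher by limma, beside 18.8% and 14.2% of all genes. At an adjusted p under 0.1 there were 20 and 2, beside 24.98% and 20.6% of all genes. The counts under 0.05 became 10 and 28 with quantile normalization, beside 7.03% and 58.6%. With array medians subtracted they became 9 and 34, beside 7.97% and 85.2%. Among the 13 with a measurable span, 10 were lower and 0 higher, with a median of -0.19, beside the same 40.2%, 9.03% and -0.12 over all genes of such span. Safb2, a scaffold attachment factor, was at -0.36 ± 0.038 (adjusted p = 0.00222), Tra2a, an activator of weak exons, at -0.32 ± 0.065 (adjusted p = 0.0117) and Fubp3 at -0.24 ± 0.046 (adjusted p = 0.00976). Mbnl1, the muscleblind protein that opposes CELF proteins at many exons, had a mean of 9.74 ± 0.023 (SD, n = 4) with chow and 9.98 ± 0.032 (SD, n = 5) with powder feed, a difference of -0.24 ± 0.019 (SE, adjusted p = 0.00143 in limma). By the median over their probe sets Mbnl1 was at 0.00004 and Pcbp3 at -0.000089, neither of them called, while Safb2 was at -0.092 and Tra2a at -0.16. Pcbp3, a poly-C binding protein, was at -0.21 and Ewsr1, a FET family protein, at -0.20, both called. Neither list is independent of the members' result, as all genes come from the same 9 arrays.

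**Figure D4:**
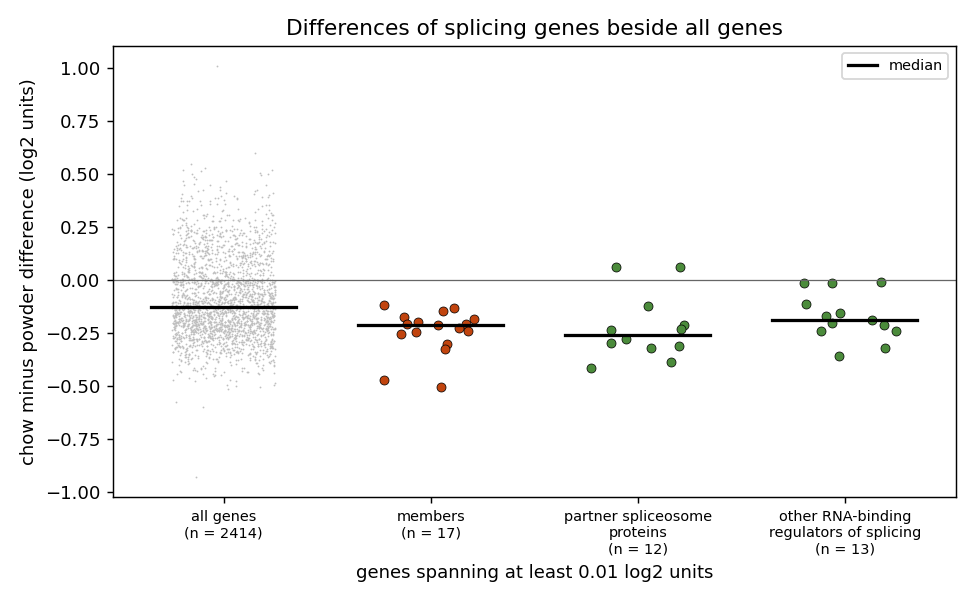
Chow minus powder difference (y, log2 units) of genes spanning at least 0.01, for all 2414 such genes, the 17 members, 12 partner spliceosome proteins and 13 other RNA-binding regulators of splicing (x), with medians as black bars. The members lie from -0.51 to -0.12, and all 4 medians are below 0.

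The chow arrays did not share 1 level. The median deviation of the 17 members from their own means was -0.091, -0.137, -0.179 and -0.092 on chow 1 to 4 and 0.074, 0.070, 0.146, 0.082 and 0.0997 on powder 1 to 5. Chow 3 was the lowest chow array for 9 members and chow 1 the highest for 8, while powder 3 was the highest powder array for 10. The lowest correlation between any pair of arrays over all rat probe sets was that of chow 1 with powder 1 (0.991, where the highest was 0.999). Without chow 1, 16 of the 17 members were called lower, beside 36.3% of genes of measurable span.

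A measure of RNA quality moved with the diet. The 3′ probe set of the beta-actin control exceeded the 5′ one by 1.54, 1.58, 1.44 and 1.54 on chow 1 to 4 and by 1.69, 1.68, 1.64, 1.55 and 1.70 on powder 1 to 5, so that only powder 4 fell within the chow range. With this gap as a term in the fit, the 17 members had differences from -0.45 to -0.072 and a median of -0.22, and 5 were called lower (Leng8, Tia1, Rbm10, Rbm12b and Rbm25), beside 10.4% of genes of measurable span. The part of RNA quality in the result was not tested beyond this fit.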

How the data were processed

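Expression in 9 thalamus samples was measured on single-colour arrays from 100 ng of total RNA, per the labels. The table deposited by the authors gives expression as log2 values of 31099 probe sets on each array, without stated software or normalization. That the scale is log2 was read from the range, 5.37 to 14.05. The number of arrays limits the precision.

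After 57 control probe sets were left out, the diets were compared by limma 3.58.1 (lmFit, eBayes, run in R 4.3.3) over all 14217 genes and over all 31042 rat probe sets, with Benjamini-Hochberg adjustment, and features with adjusted p under 0.05 were called. Genes were named from the platform annotation, with no gene named from the 436 probe sets of several symbols. Members, lists and the span limit of 0.01 were chosen with earlier results of these data known. Every member spanning at least 0.01 is named, and up to 6 called genes per list by size of difference; members of narrow span are named after their values were seen. All 80 symbols were in the RefSeq gene table, and 71 in its promoter table. Figures used matplotlib 3.10.9. The fit was tested on simulated data. Alternatives are in the closing section.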

Additional observations from a re-analysis of the deposited data

Results flagged for a closer look

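Within the groups, 2 values stood far from the other arrays among 70 groups looked at, where chance alone gives about 1 in 20. Celf5 on chow 1 read 9.33, with the nearest chow array at 9.06. Of the 2 Hnrnpa2b1 probe sets called lower under chow, the one at -0.30 read 8.77 on chow 3, with the nearest chow array at 8.99.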

How the results depend on the processing

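Of the 15 calls among the 17 members of measurable span, all 15 were kept with a trended robust variance, array weights, quantile normalization, array medians subtracted, the dimmest 25% of genes left out, or the fit on genes spanning at least 0.01 only. Leaving out each array gave 13 to 16 lower and 0 higher calls. The shares of genes of measurable span called were then 32.7% to 42.0% lower and 6.59% to 8.78% higher. The beta-actin term gave 5 lower calls, beside 10.4% of such genes. A replicate block by the numbers in the titles gave 0, where 0.456% of such genes were called. Under the block, which takes no information from powder 5 because it has no chow partner, the 17 differences ran from -0.49 to -0.099 with a median of -0.21, and adjusted p by limma from 0.0577 to 0.225. Same-numbered arrays did not deviate together (correlations of -0.32, 0.16, -0.36 and -0.0078, and 0 of 4 chow arrays matched best with their own number), so the block is no paired analysis of known pairs. With probe sets of a gene combined by their median, 14 were called lower and 1 higher, beside 32.2% and 12.0% of genes of measurable span. The higher one was Celf2 at 0.13 (adjusted p = 0.04 by limma), and Rbm5 turned to 0.11 and was not called.

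Over all 80 members, lower and higher calls were 33 and 4 as reported, where 18.8% and 14.2% of all genes were called. They were 16 and 61 with quantile normalization, beside 7.03% and 58.6%, and 17 and 63 with medians subtracted, beside 7.97% and 85.2%. The replicate block gave 0 and 0, beside 0.0774% and 0%. The beta-actin term gave 8 and 1, beside 3.59% and 1.498%. The median over probe sets gave 25 and 10, beside 14.2% and 16.9%. At adjusted p under 0.1 there were 40 and 7, beside 24.98% and 20.6%. With 1 array left out the calls were 26 to 31 and 1 to 4, beside 14.2% to 18.6% and 9.51% to 12.5%. Rbmx turned to 0.017 with quantile normalization and 0.0065 with medians subtracted, and Mbnl1 to 4.03e-05 by the median over its probe sets. Medians over probe sets take in those of narrow span, as given above for Leng8, Tia1, Rbm10, Rbm15, Hnrnpa1 and Rbm26. Otherwise the cause of these changes was not tested, beyond the size of the rescaling against the narrow spans.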
